A study of Ovis aries with 16 samples.

Results

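The responses of the fetal sheep heart to angiotensin II and to losartan were set against each other. All 16 arrays of the series entered the comparison. In each of 8 twin sets the log2 signal of the treated fetus minus that of its twin gave 1 ratio, and the 4 angiotensin II ratios were contrasted with the 4 losartan ratios for each of 8970 tested probes of 15008. A difference above 0 means that a probe stood higher under angiotensin II than under losartan, each measured against its own twins. The animals were twin fetuses with catheters placed at 125 to 126 days of gestation, where term is 145 days. In all, 4 groups of 4 fetuses were sampled after 5 days: fetuses given intravenous angiotensin II, their twins without an infusion, fetuses given intravenous losartan, and their twins without an infusion. The control twins were different animals in the 2 arms, so the arms share no array. The labels give the tissue both as left ventricular free wall and as free wall with septum, and describe the infusion as daily in 1 place and as continuous in another.

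Angiotensin II is the active hormone that renin and converting enzyme produce. It acts mainly through the AT1 receptor (AGTR1), which raises vascular tone and, in cell culture, promotes growth of muscle cells and fibroblasts. Losartan blocks that receptor, so the pair of treatments pushes the same receptor in opposite directions, and both also change arterial pressure and thus the load on the heart. The fetal ventricle still grows in part by division of its cardiomyocytes.

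Genes are read here through single 60-base probes, since the array carries expressed sequences of which most have no gene name. The first 30 bases of 7 probes are printed because the account turns on them: the gene with the largest difference among those measured in all groups (CCNB1), the smooth muscle genes MYL9 and CNN1, the gene with the smallest p (INHBA), the fibroblast growth factor FGF1 on the opposite side, and 2 unnamed probes that stood far from 0 on either side. All letters are lower case, since no motif was searched.
CCNB1: gtgtaacttgtgaactttggaatactatct
MYL9: tctaatagaaggttgagcattgctttgggt
CNN1: cgcgagcactttctttttctacttcactgg
INHBA: gaacatcatcaagaaggacatccaaaacat
FGF1: aagcatgcagagaagaattggttcattggt
A_70_P027966: tgaaaactttagggaactaaaggaaggggc
A_70_P064081: atccccagacccaatatgaacaccacgatg
The files give no position in the sheep genome for these probes.

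Each array had 57.3% to 64.1% of its probes well above background, and its 75th percentile, to which every level is relative, lay at 1099 to 1670 fluorescence units. Of the 16 arrays, 3 stood apart, with bright control corners at 17.24 to 17.73 on the log2 scale against 14.4 to 15.36 on the other 13. These 3 arrays were the untreated twin of set 2 and the angiotensin II fetuses of sets 7 and 8, all on slide 2. Sets 2, 7 and 8 each hold 1 of these 3 arrays, and the counts and many of the named differences are given with and without these sets. On the axis of largest variation between arrays (first principal component, 36% of the variance) the 3 stood at 28.5 to 36.7. The other 13 stood at -16.3 to -0.7. A shift shared by the 3 arrays would move the losartan ratio of set 2 and the angiotensin II ratios of sets 7 and 8 in opposite directions. Its part in the results was not tested. Each of the 2 slides held 8 arrays of mixed groups, and 3 of the 4 losartan fetuses but only 1 of their 4 twins were on slide 2. The tissue check rested on 3 cardiomyocyte markers (MYH7, TPM1 and MB), whose mean level was 4.28 to 5.21 on all arrays, above the array's 75th percentile. No atrial marker of the list was tested. The 1 skeletal muscle marker tested, TNNC2, stood at -2.33 to 1.85 in the untreated losartan twins and at -2.5 to -1.89 in the losartan fetuses. Its losartan ratios were -3.74 in set 2 and -3.84 in set 4, against -0.11 and -0.18 in sets 1 and 3. The part of tissue content in this was not tested.

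Most probes that passed the test of the difference had effects of opposite sign in the 2 arms. Of 8970 probes, 148 (1.65%) differed at an adjusted p under 0.05 in limma, 117 (1.3%) higher and 31 (0.346%) lower under angiotensin II than under losartan. The balance of 79.1% higher depended on the source of the values: the deposited value table gave 790 higher and 944 lower (45.6% higher), and slide as a further block 280 and 147 (65.6% higher). For the probes that stood higher, the median angiotensin II effect was 0.53 and the median losartan effect -0.95 on the log2 scale. For those that stood lower, the medians were -0.33 and 0.65. The losartan effect was the larger in 133 of the 148. For opposed effects the test of their average is a test of unequal size, and no probe passed it (smallest adjusted p 0.452 in limma). In 147 of the 148, the 4 angiotensin II ratios did not overlap the 4 losartan ratios, and the other probe (HMMR) lacked 1 ratio and did not overlap in the other 7. This is a pattern that 6.08% of all tested probes showed upwards and 6.3% downwards. In 104 of the 117, all 4 angiotensin II ratios were above 0 and all 4 losartan ratios below 0, against 3.1% of all probes. In 23 of the 31 the signs were reversed in all 8 sets, against 2.71% of all probes. The 148 were picked by a difference of these same 8 ratios, which favours such patterns. These shares therefore describe the calls and are no separate support for them. An exact permutation test of 4 against 4 ratios cannot go below a two-sided p of 0.0286, which every complete non-overlapping pattern reaches.

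**Figure D1:**
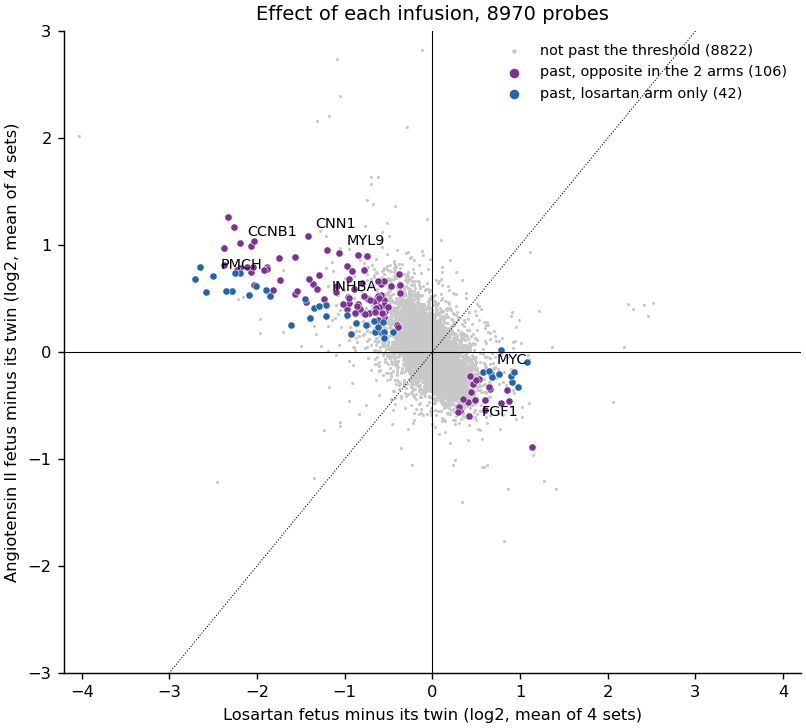
Mean log2 ratio of treated fetus to twin in the losartan arm (x axis) against that in the angiotensin II arm (y axis) for each tested probe, 4 twin sets per arm. The dotted line marks equal effects. The 106 purple and 42 blue probes passed the test of the difference, and they lie in the upper left and lower right, where the 2 effects have opposite signs, with 1 exception.

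Sorted by limma's unadjusted p in each arm, 106 of the 148 responded in both arms with opposite signs (86 higher, 20 lower), against 3.01% of all tested probes. The other 42 responded in the losartan arm alone (31 higher, 11 lower), against 9.25% of all probes. None of the 148 responded in the angiotensin II arm alone, which 7.4% of all probes did, and none responded in the same direction, which 0.0446% of all probes did. These classes use the same ratios as the test of the difference and describe the calls. A p above the threshold in an arm does not show that the arm did not respond. On its own the losartan effect passed the adjusted threshold for 109 probes (1.22%). The angiotensin II effect passed it for 0 (0.0%), with 938 at an unadjusted p under 0.05 in limma, so the angiotensin II side of each opposed pair rests on unadjusted p-values. Of the 148 differences, 53 were not among the 109 losartan calls.

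Without sets 2, 7 and 8, 75 probes passed, 47 of them among the 148. All 148 kept their sign there, which non-overlapping ratios fix in advance whichever sets are left out. Of the 75, 49 were opposed. With slide as a further block 427 passed, the 148 among them. Fits to 1 slide alone had to drop the twin block and are given as values only. Slide 1 held 1 losartan fetus, slide 2 held 1 untreated losartan twin, which is an array that stands apart, and both angiotensin II fetuses on slide 2 stand apart too. Those fits called 38 and 1880 probes, and slide 2 gave 941 higher and 939 lower. In fits to all probes the 2 effects correlated at -0.52 across the 8970 probes, at -0.35 without the 3 sets and at -0.66 with slide as a block. These are descriptions, since probes on 1 array are not independent.

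Named genes followed the same split. Of 553 named genes, each read from its brightest tested probe, 15 stood higher (2.71%) and 4 lower (0.723%) at an adjusted p under 0.05. Differences above 0 were found in 59.0% of the 553. These shares are the background for the gene lists below. Of the 19, 15 were opposed in the 2 arms and 4 (PMCH, SNAI2, TIMP1 and MYC) responded in the losartan arm alone. The losartan effect was the larger in all 19, with none past the threshold in the test of unequal size. All 19 kept their sign without sets 2, 7 and 8, as ratios that do not overlap must. The 10 that still passed were CCNB1, CDK1, CCNA2, TYMS, CNN1, MYL9, INHBA, IGFBP2, PMCH and FGF1. With slide as a further block all 19 passed. With slide and array row together 10 passed. A fit to the 4 twin sets that shared a slide has fewer ratios per arm and so less power. Its differences were 2.88 for CCNB1, 1.94 for MYL9, 1.89 for INHBA, -1.01 for FGF1 and -0.65 for PLIN5. In that limma fit 0 of the 19 passed. Fits to slide 1 and to slide 2 without the twin block called 4 and 3 of them.

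**Figure D2:**
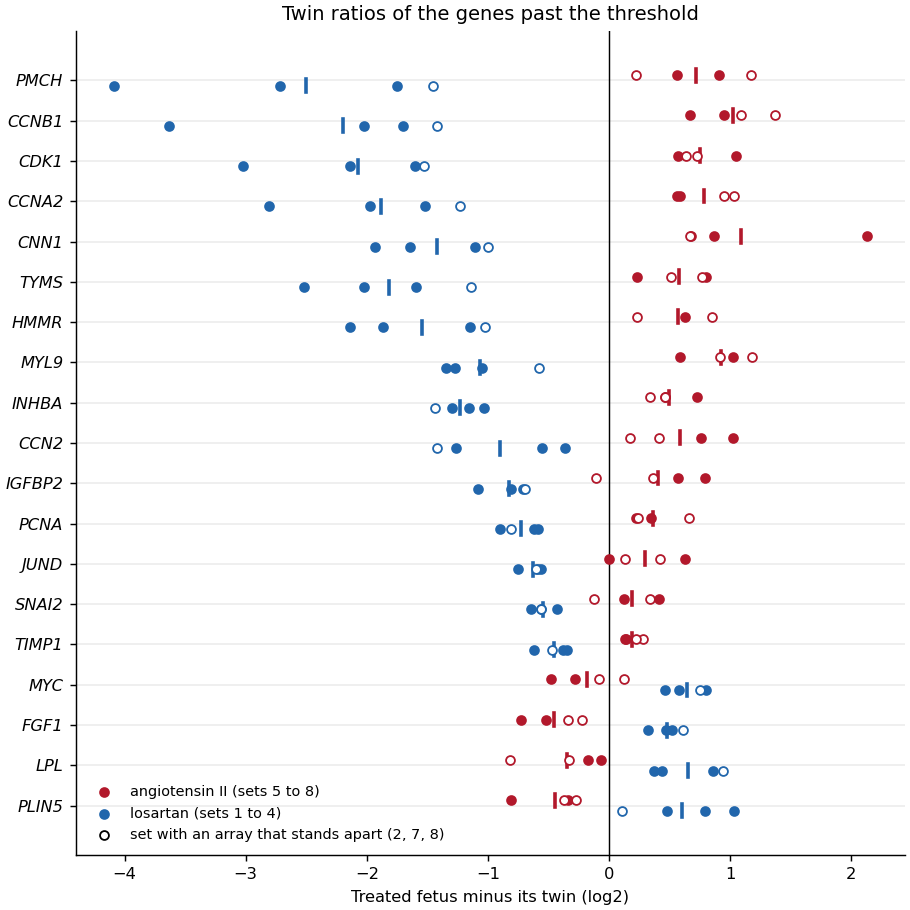
Log2 ratio of treated fetus to twin in each of the 8 twin sets for the 19 named genes past the threshold, sorted by their difference, with a vertical bar at the mean of each arm. Red points (angiotensin II) and blue points (losartan) do not overlap for any gene, and open points mark the sets that hold an array standing apart.

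Genes of mitosis stood below the twins' level under losartan and above it under angiotensin II in 4 cases that passed the test. Of 5 tested genes of mitosis and the spindle, 4 passed, all higher under angiotensin II than under losartan, as did 2.71% of all named genes. The median difference of the 5 was 2.66, against 0.08 for all named genes. That median is of fitted values and not an exact size, since CCNA2, CDK1 and ASPM were not well above background in all losartan fetuses. Cyclin B1 (CCNB1) binds the kinase CDK1 to drive entry into mitosis. Its ratios were -1.70, -1.42, -2.02 and -3.63 in losartan sets 1 to 4 and 0.67, 0.95, 1.09 and 1.37 in angiotensin II sets 5 to 8. All 4 losartan fetuses were below their twins and all 4 angiotensin II fetuses above theirs. The difference was 3.21 (SE 0.42, 95% interval 2.27 to 4.16; adjusted p = 0.00707 in limma). The level of CCNB1 in the untreated twins was -0.07 ± 0.25 (SD, n = 4) in the losartan arm and -0.40 ± 0.96 (SD, n = 4) in the angiotensin II arm.

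CDK1 had losartan ratios of -1.60, -1.53, -2.14 and -3.02 and angiotensin II ratios of 0.57, 1.05, 0.64 and 0.73. Its difference was 2.82 (SE 0.31; adjusted p = 0.00261 in limma). Only 2 of the 4 losartan arrays showed it well above background, as did all arrays of the other groups, so its fitted losartan ratios are not exact sizes. Cyclin A2 (CCNA2), which acts in DNA replication and early mitosis, gave losartan ratios of -1.52, -1.23, -1.97 and -2.81 and angiotensin II ratios of 0.59, 0.56, 0.95 and 1.03. Its difference was 2.66 (SE 0.31; adjusted p = 0.0037), with 1 of 4 losartan fetuses well above background. In each of these 3 genes set 4 gave the lowest losartan ratio.

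HMMR, a spindle-associated protein, differed by 2.11 (SE 0.30; adjusted p = 0.0142 in limma). Its losartan ratios were -1.15, -1.02, -1.87 and -2.14. Its angiotensin II ratios were 0.63, 0.23 and 0.85 in sets 5, 7 and 8. Set 6 was dropped from its fit because the scanner software had marked a spot as an outlier. Its other probe gave 1.55 (adjusted p = 0.0289). The list's member that did not pass, ASPM, is named for completeness: its difference was 2.35 (adjusted p = 0.0548), and no losartan fetus was well above background, where its bound was at least 1.92-fold lower than the twins.

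Among 9 tested genes of DNA synthesis and the rest of the cell cycle, 2 passed, both higher, and 8 were above 0. Of all named genes 2.71% passed on that side and 59.0% were above 0. Thymidylate synthase (TYMS), which makes the thymine nucleotide for DNA, had losartan ratios of -1.59, -1.14, -2.02 and -2.52 and angiotensin II ratios of 0.23, 0.80, 0.77 and 0.51. Its difference was 2.4 (SE 0.28; adjusted p = 0.00371 in limma). PCNA, the sliding clamp of DNA polymerase, was below its twin in every losartan set (-0.59, -0.81, -0.62, -0.90) and above it in every angiotensin II set (0.22, 0.35, 0.66, 0.24). Its difference was 1.10 (SE 0.15; adjusted p = 0.00874), and its other probe gave 1.12. Cyclin D2 (CCND2) differed by 1.81 but missed the threshold (adjusted p = 0.0571), and differed by 1.13 without sets 2, 7 and 8. The maintenance methyltransferase DNMT1 differed by 0.47 (adjusted p = 0.126). The list's median difference was 0.36, and 0.12 without sets 2, 7 and 8, while that of the mitosis list was 2.92 without them.

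Of 4 tested genes of smooth muscle contraction 2 passed, MYL9 and CNN1, both higher under angiotensin II than under losartan, with a list median of 1.07. Of all named genes 2.71% passed on that side. MYL9, the regulatory light chain of smooth muscle myosin, stood at 4.99, 4.28, 4.75 and 4.45 in the untreated twins of sets 1 to 4 and at 3.95, 3.70, 3.4 and 3.18 in their losartan-treated twins. In sets 5 to 8 it stood at 4.46, 4.56, 4.44 and 4.61 untreated and at 5.05, 5.58, 5.62 and 5.53 under angiotensin II. The 3 kinds of fetus did not overlap: losartan lowest, all 8 untreated twins between, angiotensin II highest. The losartan effect was -1.06 and the angiotensin II effect 0.93 (SE 0.14 each), and their difference was 1.99 (95% interval 1.53 to 2.45; adjusted p = 0.00207 in limma). The other MYL9 probe gave 2.16 (adjusted p = 0.00283).

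CNN1 encodes calponin, an actin-binding protein of smooth muscle. Its losartan ratios were -1.93, -1.0, -1.64 and -1.11, and its angiotensin II ratios were 0.87, 2.13, 0.68 and 0.67. Its difference was 2.51 (SE 0.35; adjusted p = 0.00866 in limma). The ratio of set 6 was the highest, and its untreated twin stood lowest, at 2.09 against 3.32 to 4.13 in the other 3 untreated twins of that arm, while all 4 angiotensin II fetuses stood at 4.13 to 4.80. The other 2 tested genes of the list, MYLK (myosin light chain kinase, 0.16) and TPM1 (tropomyosin, also a cardiomyocyte gene, 0.01), did not pass, and the sign of both turned under other settings. The 3 smooth muscle markers CNN1, MYL9 and MYLK had a mean level of 1.52 to 2.15 in the losartan fetuses, 2.42 to 3.32 in all untreated twins and 3.01 to 3.77 under angiotensin II. The part of cell makeup in these 2 genes was not tested, and in a tissue sample fewer cells of a type and less RNA per cell cannot be told apart.

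**Figure D3:**
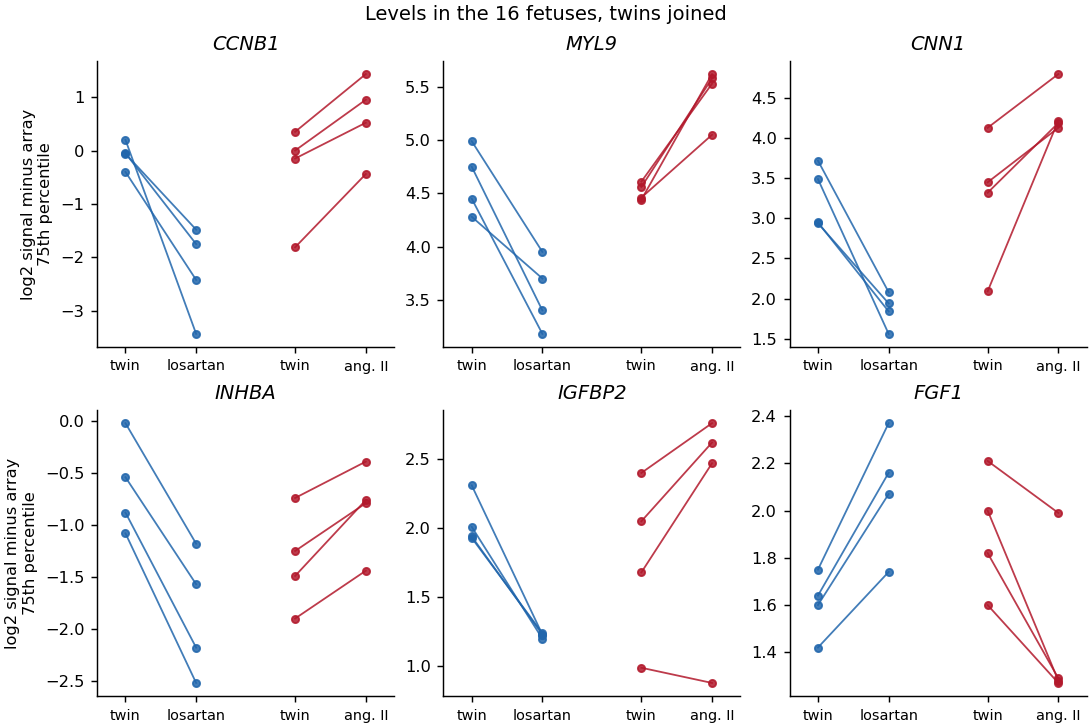
Level (log2 signal minus the array's 75th percentile) of 6 genes in all 16 fetuses, with each line joining a treated fetus to its untreated twin (blue, losartan; red, angiotensin II). The lines fall under losartan and rise under angiotensin II for CCNB1, MYL9, CNN1 and INHBA in every set, and IGFBP2 does so except in 1 angiotensin II set, while FGF1 moves the other way.

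INHBA encodes the subunit of activin A, a ligand of the TGF-beta family. It gave the smallest p of any named gene. Its losartan ratios were -1.03, -1.44, -1.16 and -1.30 and its angiotensin II ratios 0.46, 0.73, 0.34 and 0.46, a narrow spread in each arm. The difference was 1.73 (SE 0.15, 95% interval 1.39 to 2.07; adjusted p = 0.00113 in limma), and 1.91 by its other probe. Its untreated twins were not level: the mean was -0.63 ± 0.46 in the losartan arm and -1.34 ± 0.48 in the angiotensin II arm (SD, n = 4 each). On slide 1 alone, without the twin block, the difference was 1.04, and on slide 2 alone 1.66. INHBA was the 1 gene of 15 tested in the activin and TGF-beta list that passed, and the list's median was 0.19. TGFB2, a TGF-beta ligand, differed by 1.89 (adjusted p = 0.102), and by 0.88 without sets 2, 7 and 8. BAMBI, a decoy receptor of the family, differed by 0.66 (adjusted p = 0.121), with an angiotensin II effect of 0.59 and a losartan effect of -0.07. Its difference was 0.44 without sets 2, 7 and 8.

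Of 5 tested regulators of matrix 2 passed, both higher, against 2.71% of all named genes. CCN2, a secreted matricellular protein also known as connective tissue growth factor, had losartan ratios of -0.36, -1.42, -1.26 and -0.55 and angiotensin II ratios of 0.76, 1.02, 0.17 and 0.41. Its difference was 1.49 (SE 0.28; adjusted p = 0.0333 in limma), and 1.39 by its other probe (adjusted p = 0.0579). TIMP1 inhibits matrix metalloproteinases. Its losartan ratios were -0.62, -0.47, -0.38 and -0.35, its angiotensin II ratios 0.14, 0.13, 0.28 and 0.22, and its difference 0.65 (SE 0.13; adjusted p = 0.0436). Its angiotensin II effect of 0.19 had a 95% interval of -0.01 to 0.40. Without sets 2, 7 and 8 neither gene passed (adjusted p = 0.0589 for CCN2 and 0.237 for TIMP1), at differences of 1.62 and 0.58.

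None of 9 tested collagens and other matrix genes passed, with a median of 0.42. COL12A1, a collagen that lies on the surface of fibrils, was nearest, at 1.61 (SE 0.36; adjusted p = 0.059 in limma). COL1A2, a chain of type I collagen, differed by 1.08, and COL4A1, a chain of basement membrane collagen, by 1.44. For both of these genes set 2 gave the lowest losartan ratio (-1.4 and -1.81) and sets 7 and 8 the highest angiotensin II ratios (1.05 and 1.17, and 1.87 and 1.64). Without these sets the differences were 0.22 and 0.09, and the list's median was 0.06. The 5 fibroblast markers had a mean level of 3.48 to 3.85 in the losartan fetuses, below the 3.86 to 4.13 of their untreated twins. In the angiotensin II fetuses it was 3.50 to 3.94, and in their twins 3.47 to 3.9. The part of cell makeup in the matrix genes was not tested.

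The other named genes that stood higher under angiotensin II than under losartan belonged to growth factor binding, transcription factors and a neuropeptide. IGFBP2 binds insulin-like growth factors in the extracellular space. It had losartan ratios of -0.71, -0.69, -0.81 and -1.08 and angiotensin II ratios of 0.79, 0.57, 0.36 and -0.11. All 4 losartan fetuses were at 1.20 to 1.24. The angiotensin II fetus of set 8 was the lowest of its group, at 0.88, and its twin stood at 0.99. The difference was 1.22 (SE 0.20; adjusted p = 0.0214 in limma), and 1.55 without sets 2, 7 and 8. Its other probe gave 0.99 (adjusted p = 0.135). No other gene of 8 in the insulin-like growth factor list passed.

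JUND, a component of the transcription factor AP-1, differed by 0.92 (adjusted p = 0.0289 in limma), with losartan ratios of -0.56 to -0.75 and angiotensin II ratios of 0.00 to 0.63. The JUND probe was not well above background on every array. FOS, another component, had losartan ratios of -0.83, 0.01, -1.46 and -0.99 and angiotensin II ratios of 0.90, 0.97, 0.21 and 0.19. Its difference of 1.38 missed the threshold (adjusted p = 0.0637) and was 2.03 without sets 2, 7 and 8 (adjusted p = 0.0182). SNAI2, a repressor of epithelial genes, differed by 0.74 (adjusted p = 0.0498), and 1 losartan array of 4 had its probe well above background. Its adjusted p was 0.126 without the 3 sets.

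PMCH encodes the precursor of melanin-concentrating hormone. Its losartan ratios were -1.75, -1.45, -2.72 and -4.09 and its angiotensin II ratios 0.56, 0.91, 0.22 and 1.17. The fitted difference was 3.22 (SE 0.51; adjusted p = 0.0179 in limma), and 2.86 by its other probe. No losartan fetus was well above background and all 4 of their twins were. Set against the lowest signal well above background on each array, the losartan fetuses stood at least 3.06-fold lower than their twins. In the angiotensin II fetuses and in their twins, 3 of 4 arrays were well above background. The probe thus entered the test only through the untreated losartan twins. That choice favours low losartan ratios, and the p-value does not count it.

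For 4 more genes a probe other than the brightest one passed, and BGN and CTSB among them are named after their values were seen. Squalene epoxidase (SQLE), an enzyme of sterol synthesis, differed by 1.10 (adjusted p = 0.0436 in limma) through that probe and by 1.07 (adjusted p = 0.0624) through the brightest. The prostaglandin E receptor PTGER3 gave 0.68 (adjusted p = 0.0483) and 0.65 (adjusted p = 0.0624). For the matrix proteoglycan BGN and the lysosomal protease CTSB the probes were farther apart, at 1.44 against 0.42 and at 0.93 against 0.39.

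The 4 named genes that passed on the other side stood lower under angiotensin II than under losartan: 2 growth regulators and 2 genes of lipid handling. FGF1 is a fibroblast growth factor abundant in heart muscle. Its losartan ratios were 0.32, 0.61, 0.47 and 0.52 and its angiotensin II ratios -0.52, -0.73, -0.34 and -0.22. Every losartan fetus was above its twin and every angiotensin II fetus below. The losartan effect of 0.48 and the angiotensin II effect of -0.45 were near in size, and the difference was -0.93 (95% interval -1.28 to -0.59; adjusted p = 0.0211 in limma). It was -1.06 without sets 2, 7 and 8 (adjusted p = 0.049). The transcription factor MYC, which promotes growth and proliferation, had losartan ratios of 0.58, 0.75, 0.46 and 0.80 and angiotensin II ratios of -0.28, -0.48, -0.08 and 0.12. Its difference was -0.83 (adjusted p = 0.044), and -0.88 by its other probe. Its angiotensin II effect was -0.18 (95% interval -0.44 to 0.09). MYC and the 4 mitosis genes that passed had differences of opposite sign.

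PLIN5, a coat protein of lipid droplets in oxidative tissues, had losartan ratios of 0.79, 0.11, 0.48 and 1.03 and angiotensin II ratios of -0.81, -0.34, -0.27 and -0.37. Its difference was -1.05 (SE 0.22; adjusted p = 0.0483 in limma), on a dim probe that was well above background in 1 of 4 angiotensin II fetuses and 2 of 4 untreated losartan twins. Lipoprotein lipase (LPL), which frees fatty acids from circulating lipoproteins, had losartan ratios of 0.37, 0.94, 0.44 and 0.86 and angiotensin II ratios of -0.07, -0.17, -0.82 and -0.33. Its difference was -1.0 (SE 0.21; adjusted p = 0.0498). The other 2 LPL probes gave -0.22 (adjusted p = 0.664) and -0.39 (adjusted p = 0.357), so the call rests on 1 of 3 probes. It was -0.68 without sets 2, 7 and 8 (adjusted p = 0.237), and PLIN5 was -1.34 (adjusted p = 0.0585).

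LPL was the 1 gene of 7 that passed in the list of fatty acid uptake, storage and oxidation, to which PLIN5 does not belong. Of the 7, 6 were below 0, with a median of -0.40 against 0.08 for all named genes. Of all named genes 59.0% were above 0. PLIN2, another lipid droplet protein, had losartan ratios of 0.25, 0.15, 0.11 and 0.03 and angiotensin II ratios of -0.28, -0.31, -0.28 and -0.20. These ratios did not overlap, but the difference of -0.40 did not pass (adjusted p = 0.136 in limma). CPT1B, which admits fatty acids to the mitochondrion, differed by -0.42 (adjusted p = 0.167). The list's median was -0.46 without sets 2, 7 and 8, with all 7 genes below 0. The 2 adipocyte markers had a mean level of -2.17 to -0.99 over all 16 arrays, and both of their differences (median -0.53) were below 0. Their part in the lipid genes was not tested.

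Named genes below 0 that did not pass included CEBPB, a transcription factor, which differed by -1.08 (adjusted p = 0.0691 in limma). FGF7, a growth factor made by connective tissue cells, differed by -0.63 (adjusted p = 0.102), and by -0.33 without these sets.

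**Figure D4:**
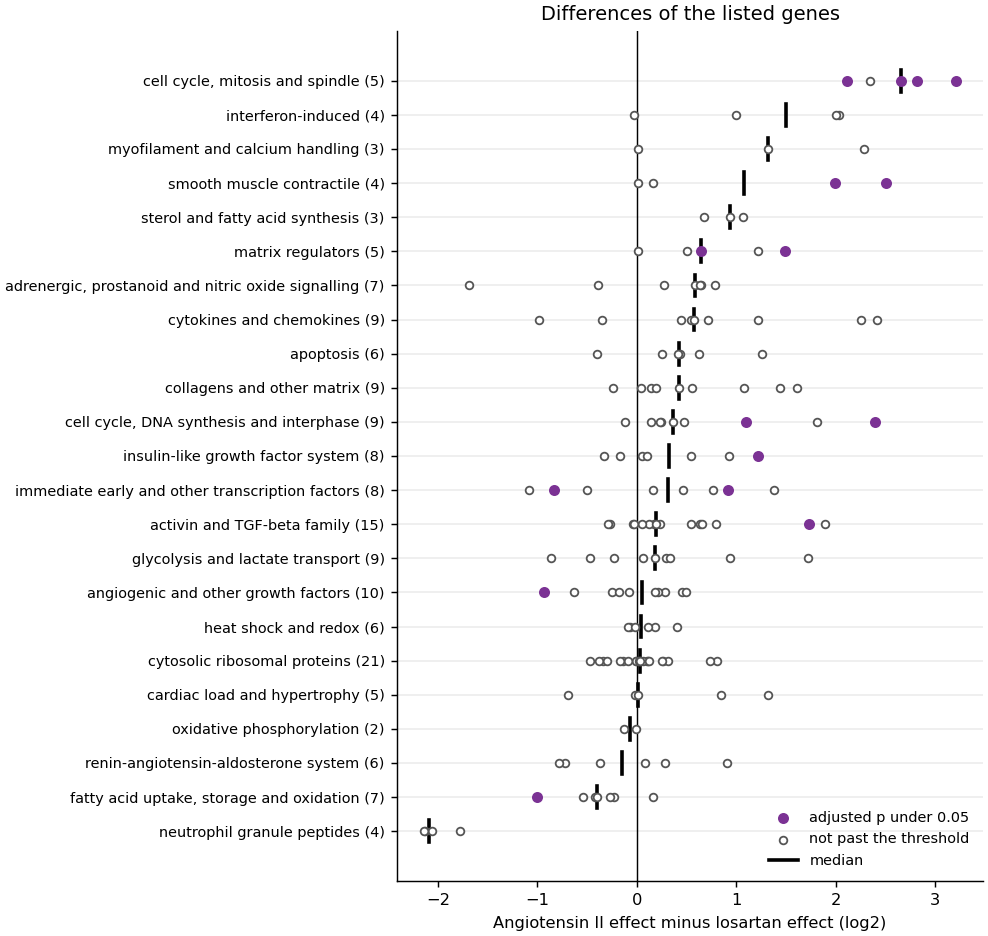
Angiotensin II effect minus losartan effect (log2) for each tested member of 23 gene lists, with the number of tested genes in parentheses. Filled points passed the test of the difference, and black bars mark medians of fitted values: mitosis lies at 2.66 and neutrophil granule peptides at -2.10, the latter with no gene past the threshold.

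No gene of the renin-angiotensin-aldosterone list passed, among 6 tested. The AT1 receptor gene itself (AGTR1) had losartan ratios of -0.59, -0.75, 0.08 and 0.95 and angiotensin II ratios of -0.60, 0.08, 0.40 and 0.10, which overlapped fully. Its difference was 0.08 (95% interval -0.74 to 0.90; adjusted p = 0.92 in limma). The sign turned under other settings. The AT2 receptor gene (AGTR2) differed by -0.72 (adjusted p = 0.215), and by -0.29 without sets 2, 7 and 8. All 4 angiotensin II fetuses were below their twins, and 3 of 4 losartan fetuses were above. The oxidase gene NOX5 differed by -0.78 (adjusted p = 0.0955), with angiotensin II ratios of -0.96 to -0.29 and losartan ratios of -0.14 to 0.53. Without sets 2, 7 and 8 its difference was -0.51. CYBB, the oxidase subunit of phagocytes, differed by 0.91 (adjusted p = 0.167), and by 0.37 without sets 2, 7 and 8. HSD11B1, which regenerates active glucocorticoid, differed by -0.37 (adjusted p = 0.177). The mineralocorticoid receptor NR3C2 differed by 0.28 (adjusted p = 0.444), and by -0.02 without the 3 sets.

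None of 5 tested genes of cardiac load passed. MYH7, the slow myosin heavy chain, differed by 1.32 (adjusted p = 0.183 in limma). Its losartan ratio was -1.77 in set 2 and its angiotensin II ratios were 1.45 and 1.4 in sets 7 and 8. In the other 5 sets the ratios were -0.57 to 0.01, and the difference without the 3 sets was 0.15. FHL1, a LIM protein of the sarcomere, had angiotensin II ratios of 0.26 to 0.64 and losartan ratios of -0.79 to -0.08, and its difference of 0.85 missed the threshold (adjusted p = 0.0571). That difference was 0.64 without the 3 sets. None of 7 tested genes of adrenergic, prostanoid and nitric oxide signalling passed by its brightest probe. The beta-1 adrenergic receptor ADRB1 had angiotensin II ratios of 0.07 to 0.73 and losartan ratios of -0.84 to -0.10. Its difference was 0.79 (adjusted p = 0.10), and 0.42 without the 3 sets.

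Genes of blood cells and of the interferon response varied widely between twins. All 4 neutrophil granule peptides had differences near -2, with a median of -2.10, and none passed. For the cathelicidin CATHL3 the losartan ratios were 2.52, 1.31, 3.30 and 2.96 and the angiotensin II ratios -0.61, 2.23, 0.61 and -0.41. The arms overlapped through set 6, and the difference was -2.06 (SE 0.63; adjusted p = 0.132 in limma). CATHL1B (-2.13), BAC5 (-1.78) and SC5 (-2.14) had the same high ratio in set 6 (1.81, 1.86 and 1.46). Beta-globin (HBB), a marker of red cells, differed by -2.11 (SE 0.74; adjusted p = 0.164). Its ratios ran from -0.59 to 3.30 under losartan and from -1.70 to 0.15 under angiotensin II. The part of blood cells in the other results was not tested.

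Among 4 interferon-induced genes none passed, at a median of 1.5. MX1, an antiviral GTPase, had losartan ratios of -1.73, -0.28, -1.31 and -1.55 and angiotensin II ratios of 0.75, 2.4, -0.15 and 0.14. Its difference was 2.00 (adjusted p = 0.0989 in limma). Without sets 2, 7 and 8 it was 3.1 (adjusted p = 0.0319). Those of ISG15, MX2 and the chemokine CXCL10 were then 3.35, 2.66 and 4.24 (adjusted p = 0.049, 0.049 and 0.0222). With only sets 5 and 6 left in the angiotensin II arm, these values describe 2 fetuses and their twins, and set 6 was the highest in each gene (2.4, 2.69, 2.45 and 2.75).

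A change shared by both treatments would show in the average of the 2 effects. No probe passed in that test (0 of 8970, 0.0%), and the smallest adjusted p was 0.452 in limma. Without adjustment 357 probes had a p under 0.05, 124 above 0 and 233 below. Without sets 2, 7 and 8, 1 unnamed probe passed (A_70_P038791, average -1.20, adjusted p = 0.0401), and its average over all sets was -0.30. For an opposed gene the average measures how unequal the 2 effects were. Among named genes INHBA gave the smallest unadjusted p below 0 (average -0.37, SE 0.08), with effects of -1.23 under losartan and 0.50 under angiotensin II. TYMS (-0.62), CDK1 (-0.66) and CCNA2 (-0.55) followed, also with the larger effect under losartan. MTHFD2, a mitochondrial folate enzyme, was the exception, with a negative effect in both arms (-0.91 under losartan and -0.29 under angiotensin II, average -0.60, SE 0.14). MYL9 (-0.07), CNN1 (-0.17) and FGF1 (0.01) had averages near 0.

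Among named genes above 0 the smallest unadjusted p-values of the average were those of CATHL3 (1.49), CATHL1B (1.4), BAC5 (1.34), RGS2 (0.33) and NFKBIA (0.45), and none passed after adjustment. RGS2, which dampens signalling from G protein-coupled receptors, was above its twin in all 8 sets, with losartan ratios of 0.26, 0.98, 0.04 and 0.15 and angiotensin II ratios of 0.38, 0.38, 0.13 and 0.30. NFKBIA, the inhibitor of NF-kappaB, was above its twin in 6 of 8 sets. Of 8970 probes, 4 had unadjusted p-values under 0.05 and the same sign in both arms. They were A_70_P011201 (average 0.39), A_70_P005846 (-0.46), A_70_P048516 (-0.41) and A_70_P023481 (-0.25), all unnamed. Without sets 2, 7 and 8 there were 24, against 148 of opposite sign.

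Of the 148 probes, 119 (80.4%) had no gene name in the sources used here, against 90.5% of all tested probes. Unnamed probes were called in 119 of 8121 (1.47%) and named ones in 29 of 849 (3.42%). Of the 119, 93 were higher and 26 lower, and 86 of them were opposed in the 2 arms. In 103 of the 119, all 8 signs were opposed. The largest difference of all was 3.60, in A_70_P035456, with losartan ratios of -1.59 to -2.90 and angiotensin II ratios of 0.10, 0.35, 2.56 and 2.06. Sets 7 and 8 were above sets 5 and 6 there. A_70_P027966, printed above, was more even, with losartan ratios of -2.09, -2.25, -2.04 and -3.11 and angiotensin II ratios of 0.30, 0.83, 1.45 and 1.33. Its difference was 3.35 (SE 0.31; adjusted p = 0.00133 in limma). For both probes no losartan fetus was well above background and all 4 of their twins were, so their fitted values are not bounds. Against the lowest signal well above background the losartan fetuses stood at least 2.51-fold lower than their twins for A_70_P035456 and at least 1.72-fold lower for A_70_P027966. A_70_P064081, the lowest at -2.03 (adjusted p = 0.026), had losartan ratios of 0.85, 0.56, 1.58 and 1.57 and angiotensin II ratios of -1.4, -1.11, -1.14 and 0.09. It was well above background in 1 of 4 angiotensin II fetuses and 1 of 4 untreated losartan twins, so it entered the test only through the other groups. A_70_P035456 and A_70_P027966 entered only through the angiotensin II fetuses and the untreated losartan twins. Such a choice favours differences of the sign seen in each of these probes, and their p-values do not count it. No unnamed probe of the 119 shared a run of 20 bases with another probe of the array. Without sets 2, 7 and 8, 33 of the 119 still passed.

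**Figure D5:**
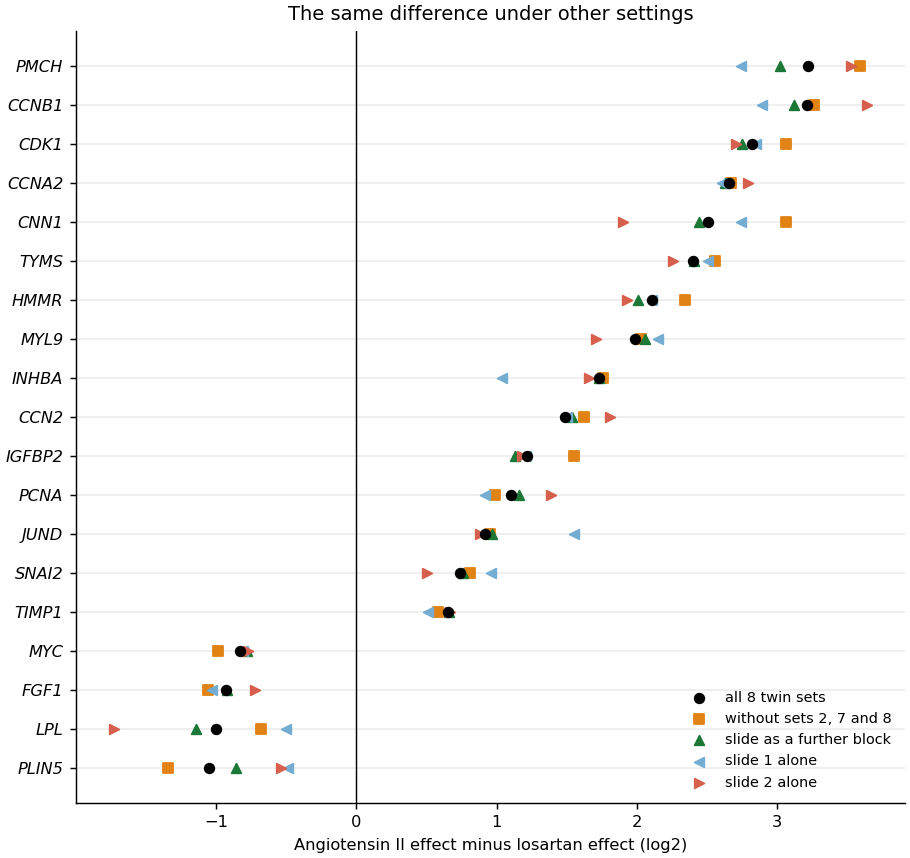
Angiotensin II effect minus losartan effect (log2) of the 19 named genes past the threshold, from all 8 twin sets, without sets 2, 7 and 8, with slide as a further block, and on each slide alone. The fits to 1 slide have no twin block, and slide 1 holds 1 losartan fetus and slide 2 holds 1 untreated losartan twin, so that group has no replicate there. The points lie on the same side of 0 as the value from all sets, which non-overlapping ratios fix for the fit without sets 2, 7 and 8. LPL runs from -0.50 on slide 1 to -1.73 on slide 2.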

How the data were processed

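Left ventricular RNA from 16 fetuses was amplified, labelled with Cy5 and hybridised to 1-colour Agilent sheep arrays, 1 array per fetus, per the labels' protocols. The deposited scanner files hold fluorescence intensity, already background-corrected, from Feature Extraction, per the file headers. An alternative source was the deposited value table, which holds natural log values of the mean signal, as a comparison with the scanner files showed (r of at least 0.9978 per array, column medians 5.755 to 5.768), and the sources used here do not give its method. No per-sample column was left unmapped.

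Processed signals were log2-transformed and reduced by each array's 75th percentile. Control spots and outlier flags were left out and spots of a probe averaged. Probes entered the tests if all arrays of some group had them well above background. This filter admits some probes only through groups where they were high, and their p-values do not count that choice. Examples are the probe of PMCH and the unnamed A_70_P035456, A_70_P027966 and A_70_P064081. In limma 3.58.1 (R 4.3.3), twin set was a fixed block with 1 term per treatment. Contrasts were the difference of the 2 effects, their average and each effect, with Benjamini-Hochberg adjustment over 8970 probes and a threshold of 0.05. The fit was run on simulated data with independent errors, no slide effect and no arrays that stand apart. That run checks the working of the fit and not the calls on these arrays. P-values measure the spread between twin sets.

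Twin sets come from the labels. Deviations of twins from their group means correlated above 0.1 in 6 of 8 sets (-0.04 to 0.53). Of 15008 probes 1773 could be named, from the files and from RefSeq tables of assembly ARS-UI_Ramb_v3.0. A gene is its brightest tested probe. Named genes were up to 15 per side past the threshold, filled to 5 by p, 5 per side of the average, up to 4 per gene list, the renin-angiotensin list, and MYH7, ADRB1 and HBB. 1 item that the rule names is not reported here. Members and lists were chosen with earlier results of these data known. Alternatives covered background correction, normalization, the value table, filters, slide, array row, pairing, variance model, left-out twin sets and averaging probes. Array number limits the precision.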

Additional observations from a re-analysis of the deposited data

Results flagged for a closer look

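In 111 groups of 4 ratios from 56 named genes, 3 held a ratio far from the other 3, where chance flags about 1 in 20 groups. For CNN1 the angiotensin II ratio of twin set 6 was 2.13, against 0.67 to 0.87 in the other 3 sets. For COL12A1 the angiotensin II ratio of set 5 was 1.44, against 0.18 to 0.33. For TPM1 the losartan ratio of set 4 was -0.23, against -0.02 to -0.01.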

How the results depend on the processing

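The main count of 148 probes (106 opposed, 79.1% higher) stayed within 1.5 times under normexp background, quantile and median scaling, no filter on dim probes, slide with array row, a block by title number, and an intensity trend or robust eBayes in limma. It was 1734 (946 opposed, 45.6% higher) from the deposited value table, 98 where all 16 arrays had to be well above background, 427 (329 opposed) with slide as a further block, 38 (25 opposed) within slide 1 and 1880 (1316 opposed, 50.1% higher) within slide 2, both without the twin block and with 1 array in a losartan group, and 75 (49 opposed) without sets 2, 7 and 8, where the average had 1 call. From the 4 twin sets that shared a slide limma gave 0, with 746 at an unadjusted p under 0.05. The labels pair the twins; with no replicate block 3 probes passed, all 3 opposed. Leaving out 1 twin set gave 48 to 109 probes (44 to 88 opposed): without sets 1, 3, 4, 6, 7 and 8 the counts were 86, 59, 76, 69, 54 and 48. The cause of these moves was not tested. All 148 kept their sign with slide as a block, and also without sets 2, 7 and 8, where non-overlapping ratios fix the sign in advance. Of the 19 named genes, 8 to 13 passed with 1 set left out, and the signs of all 19 were fixed in the same way.

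Sign changes touched genes that did not pass. AGTR1 was -0.27 with slide and row, -0.78 within slide 1, -0.40 without sets 2, 7 and 8, and -0.15 to 0.42 with 1 set left out. NFKBIA was -0.10, -0.02 and -0.47 in the same settings, and -0.04 to 0.33. RGS2 was 0.08, 0.86 and 0.23, and -0.17 to 0.15, with 0.05 under normexp and 0.00 from the value table. MYLK was -1.31 within slide 1 and -0.67 without sets 2, 7 and 8, and -0.37 to 0.86. TPM1 was -0.02 under quantile scaling, median scaling and the slide block, -0.09 from the value table, -0.10 in sets that shared a slide, and -0.04 to 0.05 with 1 set left out. NR3C2 was -0.02 without sets 2, 7 and 8, and within slide 2 CPT1B was 0.18 and MTHFD2 -0.06. Dim probes limit PMCH, CCNA2, CDK1, SNAI2, PLIN5 and JUND.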
